A study of Mus musculus with 33 samples.

Results

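On day 2 of reprogramming of mouse fibroblasts, 959 genomic regions carried a Klf4 peak in both Klf4 samples and overlapped a region with a Sox2 peak in both Sox2 samples. They made up 959 of 1250 Klf4 regions, a share of 76.7% with an exact 95% binomial interval of 74.3% to 79.0%, and lay in 927 of 30735 Sox2 regions, a share of 3.02%. The regions were chosen from the measured peaks themselves: peaks of the 2 Klf4 samples that shared a base were merged, merged regions hit by a peak of each sample were kept, the same was done for Sox2, and Klf4 regions sharing at least 1 bp with a Sox2 region were taken. Over the series there were 31058 Klf4 or Sox2 regions in all, of which 291 were Klf4 regions without Sox2 and 29808 were Sox2 regions without Klf4. Had the peaks of 1 Klf4 sample been enough, 3167 regions (without Klf4 replicate 1) or 3681 regions (without Klf4 replicate 2) would have been shared. Values of the Klf4 and Sox2 peaks are therefore given as a description, with no test.

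Klf4 is a zinc finger transcription factor that binds GC-rich sites at promoters and enhancers, and Sox2 is a high mobility group box factor that bends DNA and can bind sites within closed chromatin. Both belong to the set of factors that turns fibroblasts into induced pluripotent stem cells, and in embryonic stem cells both occupy many enhancers of pluripotency genes. Acetylation of lysine 27 on histone H3 (H3K27ac) is a mark of active promoters and enhancers. Because it sits on nucleosomes, its signal usually flanks a stretch of nucleosome-depleted DNA at a bound element.

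The cells were mouse embryonic fibroblasts (MEFs). Sox2 and Klf4 (2 samples each) and H3K27ac (1 sample) were mapped by chromatin immunoprecipitation and sequencing in cells labelled SKM secondary MEF, kept with doxycycline in mouse ES medium until day 2; SKM stands for Sox2, Klf4 and Myc. H3K27ac was also mapped on day 0 (1 sample), in cells labelled OG2 MEFs. The day 0 and day 2 H3K27ac samples thus differ in the source of the fibroblasts, in the day and in the sample at once, and these cannot be told apart. The Klf4 samples are reported under their titles, although their antibody label names Sox2 (Millipore, AB5603), the same antibody as for the Sox2 samples. Whether their peaks are of Klf4 or of Sox2 cannot be told from the lists and was not tested. This bears on every overlap, nesting and summit distance between the 2 factors given below. It bears equally on every comparison of regions with and without Klf4, those of H3K27ac included. Whether the 2 samples of a factor came from separate cultures is not given in the sources used here, so the spread between them may be technical.

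In the RNA counts of the same study, the 3 factors were present in day 2 fibroblasts. Sox2 had 689 and 966 CPM on day 2 (counts scaled to a fixed library total), against 5.88 and 3.65 CPM on day 0. Klf4 had 1164 and 1194 CPM on day 2, against 42.5 and 39.5 CPM on day 0, and Myc had 1674 and 1419 CPM on day 2, against 60.3 and 52.0 CPM on day 0. The counts do not separate transgene from endogenous transcripts. The summed level of 9 fibroblast markers was 1533 and 2504 CPM on day 2, against 40640 and 19720 CPM on day 0. Summed macrophage markers (5 genes) were at 19.4 and 10.8 CPM on day 2 and at 180 and 315 CPM on day 0, summed endothelial markers (4 genes) at 3.30 and 11.4 CPM on day 2 and at 4.32 and 6.85 CPM on day 0, and summed keratinocyte markers (3 genes) at 27.8 and 24.2 CPM on day 2 and at 1.20 and 0.457 CPM on day 0. Single genes carried some of these sums. Krt14, a basal keratin, had 27.1 and 22.2 CPM on day 2, against 0.104 and 0.304 CPM on day 0, and Tek, an angiopoietin receptor, had 2.70 and 10.8 CPM on day 2, against 1.67 and 1.88 CPM on day 0. Kdr, a VEGF receptor, had 0.0541 and 0.149 CPM on day 2, against 2.08 and 4.11 CPM on day 0. Cdh5, an endothelial cadherin, was at 0 in 1 day 2 library, Trp63, an epidermal transcription factor, at 0 in the other day 2 library (1.09 and 0.152 CPM on day 0), and Krt5, another basal keratin, at 0 in both day 0 libraries. Fewer cells of a type and less RNA per cell cannot be told apart in such bulk samples, and the part of cell composition in the values below was not tested. Total counts of these 4 libraries lay between 18501539 and 20102260.

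The Klf4 lists were short and close to the threshold of the peak caller, which limits every value that follows. After peaks on random contigs were dropped, they held 6013 and 5966 peaks, against 39543 and 49182 peaks in the Sox2 lists. The median Klf4 peak was 71 and 65 bp wide with a fold enrichment over local background of 3.17 and 2.76, whereas the median Sox2 peak was 302 and 306 bp wide. The q-value corrected for multiple peaks was 1 (a −log10 q of 0) for 99.75% and 99.97% of Klf4 peaks, with 15 and 2 peaks above 0, while every Sox2 peak had a −log10 q of at least 1.30. Of 10650 merged Klf4 regions 11.7% were hit by both samples, against 53.5% of 57502 merged Sox2 regions. The lists were not cut alike, since the lowest −log10 p was 1.31 in both Klf4 lists and 3.47 and 3.44 in the Sox2 lists. Lengths and replicate shares of the 2 factors are therefore not like for like.

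Within the shared regions the Klf4 peaks were modest and of similar height throughout. The strongest Klf4 peak had a median fold enrichment of 3.17 in replicate 1 (lowest 1.63, highest 7.02) and of 2.83 in replicate 2 (lowest 2.03, highest 6.43). Median fold enrichments of Klf4 regions without Sox2 were the same, 3.17 and 2.83. Fold enrichment takes only 198 and 182 distinct values in the deposited Klf4 lists, so equal medians are easily reached. The mean over both replicates had a median of 3.15 in shared regions and 3.002 in Klf4 regions without Sox2. Shared regions had a median width of 151 bp (52 to 512 bp), against 125 bp for Klf4 regions without Sox2. A −log10 p of at least 3 in both Klf4 replicates was reached by 345 of the 959 shared regions (36.0%), and a −log10 q above 0 by 9 regions in replicate 1 and 1 region in replicate 2. Across the 959 regions, the fold enrichments of the Klf4 replicates had a Pearson correlation of 0.27 (Spearman 0.21), a description over peaks that all passed the same threshold in both lists.

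The Sox2 peaks in the shared regions were among the stronger ones of their lists. The strongest Sox2 peak had a median fold enrichment of 6.18 in replicate 1 (lowest 2.76, highest 12.8) and of 6.47 in replicate 2 (lowest 2.31, highest 14.0). Sox2 regions without Klf4 had medians of 5.23 and 5.81. The median shared region ranked at percentile 79.6 of all Sox2 peaks in replicate 1 and 73.1 in replicate 2, and 321 regions (33.5%) in replicate 1 and 241 (25.1%) in replicate 2 lay in the top decile. These ranks are against full lists, which include peaks of 1 replicate only, while shared regions needed both and kept their strongest peak. The full lists had medians of 5.08 and 5.43, below those of the Sox2 regions without Klf4, which also needed both replicates. The 927 Sox2 regions that held a shared region had a median width of 438 bp, against 392 bp without Klf4. Across the 959 regions, the mean fold enrichments of the Klf4 and Sox2 peaks had a Pearson correlation of 0.08 (Spearman 0.04). The Sox2 replicates themselves had 0.47 (Spearman 0.43) and the Klf4 replicates 0.27 (Spearman 0.21). Since Klf4 height was so little alike between replicates, the low value cannot decide whether the heights of the 2 factors were related.

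The share of Klf4 regions that overlapped Sox2 was high at every Klf4 strength. When the 1250 Klf4 regions were split into quintiles by mean fold enrichment, 68.5% of the lowest quintile (200 of 292) and 84.8% of the highest (212 of 250) overlapped a Sox2 region, with 74.3%, 79.8% and 77.7% in the quintiles between them, from lower to higher. Seen from Sox2, 1.27%, 1.79%, 2.90%, 2.97% and 6.17% of the quintiles by Sox2 fold enrichment, from the lowest to the highest, overlapped a Klf4 region, with 379 of 6147 in the highest. Klf4 peaks found in 1 replicate alone overlapped a Sox2 region in 2692 of 4730 cases (56.9%) for replicate 1 and 2171 of 4670 (46.5%) for replicate 2. These overlaps were part of the rule or close to it and were not tested.

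**Figure D1:**
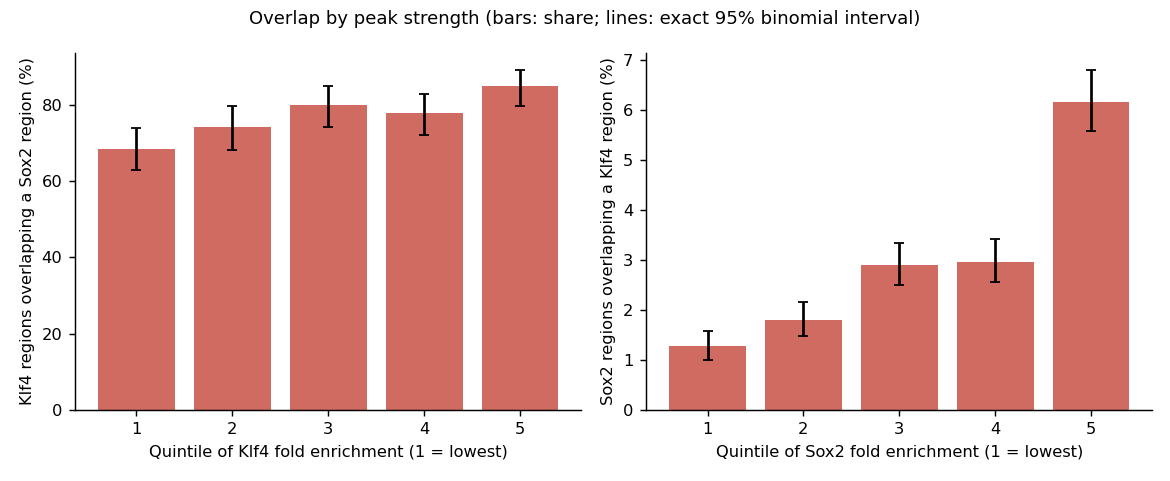
Share of Klf4 regions overlapping a Sox2 region by quintile of Klf4 fold enrichment (left) and of Sox2 regions overlapping a Klf4 region by quintile of Sox2 fold enrichment (right), in percent on axes of different range; lines are exact 95% binomial intervals. The Klf4 share lies between 68.5% and 84.8%, and the Sox2 share between 1.27% and 6.17%.

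The Klf4 and Sox2 summits lay close together, at a distance that the required overlap itself limits. With summits averaged over both replicates, the distance from the Klf4 summit to the Sox2 summit had a median of 55 bp (quartiles 27 and 99.5 bp, highest 824 bp). With the samples numbered 1 of both factors left out the median was 65 bp, and with those numbered 2 left out it was 64 bp. Each summit then came from 1 sample. Leaving samples out also drops the need for a peak in both, so these medians may not cover the same 959 regions. They are not like for like with the distances between replicates. Between the Klf4 replicates the median distance was 44 bp, and between the Sox2 replicates it was 37 bp. Both summits were within 50 bp of each other in 446 regions (46.5%), within 100 bp in 722 (75.3%) and within 200 bp in 917 (95.6%), and more than 300 bp apart in 13. Most Klf4 regions were nested: 825 of 959 (86.0%) lay wholly inside the Sox2 region. One shared region per Sox2 region was the rule, with 895 Sox2 regions holding 1 and 32 holding 2.

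**Figure D2:**
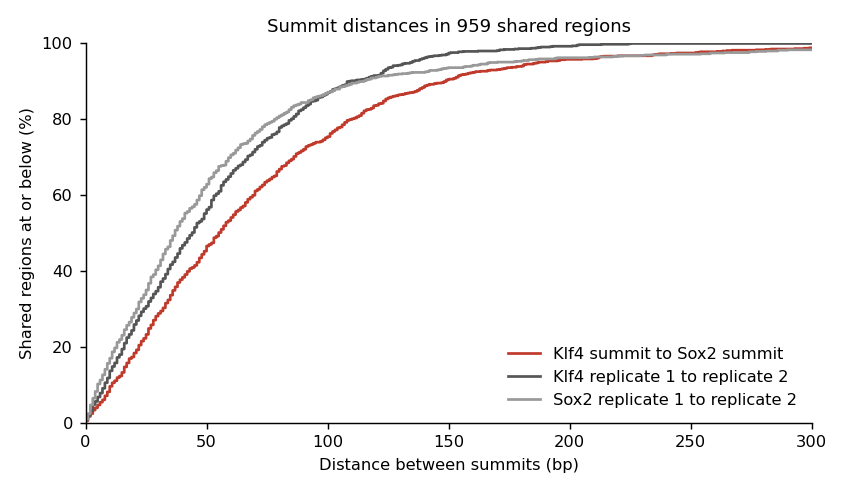
Cumulative share of the 959 shared regions (percent) by the distance in bp between the Klf4 and the Sox2 summit, each a mean of both replicates (red), between the 2 Klf4 replicates (dark grey) and between the 2 Sox2 replicates (light grey). Medians are 55, 44 and 37 bp; distances above 300 bp are not drawn.

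The regions were scattered over the genome, with a median of 1029000 bp between neighbours on a chromosome; 46 of 939 neighbouring pairs were within 10 kb and 35 within 1 kb. Chromosome 5 held the most (80, or 8.34%), followed by chromosomes 7 and 11 (70 each, or 7.30%). Of the Sox2 regions without Klf4, chromosome 5 held 5.535%, chromosome 7 4.69% and chromosome 11 5.24%. These shares were not tested. Chromosome X held 1 of the 959 shared regions (0.104%), 0 of the 291 Klf4 regions without Sox2, and 174 of the 29808 Sox2 regions without Klf4 (0.584%). At the edge of the rule, the smallest overlap was 9 bp, in chr1:182314741-182314880 (mm9, as all coordinates here), with Klf4 fold enrichments of 3.17 and 2.53 and Sox2 fold enrichments of 4.34 and 4.90. The next was 18 bp, in chr8:121940810-121940909, and those were the members that overlapped by under 20 bp. Just outside, the nearest Klf4 region without Sox2 was 34 bp from a Sox2 region, in chr15:93338745-93338945, with Klf4 fold enrichments of 3.17 and 3.43, and 24 of the 291 lay within 1000 bp of one. The set without Sox2 is itself mixed, since 173 of its 291 regions overlapped a Sox2 peak of exactly 1 replicate and 118 overlapped none.

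The 8 shared regions of highest mean Klf4 fold enrichment show how differently such sites were marked. For each, the fold enrichment of H3K27ac is that of the strongest peak within 1000 bp of the Klf4 summit, and the distance is that of the nearest peak. In chr13:30460746-30460908 Klf4 reached 7.02 and 4.93 and Sox2 6.30 and 5.12, with summits 125 bp apart. An H3K27ac peak of fold enrichment 4.73 lay 338 bp to 1 side on day 2, and none lay within 1000 bp on day 0. In chr13:19682993-19683320 Klf4 reached 4.84 and 6.43 and Sox2 4.60 and 5.55, with no H3K27ac peak nearby on either day. The same absence on both days held for chr17:57097452-57097808 (Klf4 6.32 and 4.03, Sox2 9.71 and 9.80) and for chr10:38710691-38710992 (Klf4 5.97 and 4.03, Sox2 5.88 and 8.43).

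In 3 others the summit lay between H3K27ac peaks on day 2. For chr15:93019884-93020098 Klf4 was 7.02 and 3.73 and Sox2 6.65 and 12.6, and H3K27ac of 6.78 began 200 bp away on day 2, with none on day 0. For chr10:97971226-97971541 Klf4 was 6.32 and 4.03 and Sox2 9.50 and 12.5, with H3K27ac of 11.6 from 149 bp on day 2, and of 3.83 from 150 bp on 1 side on day 0. For chr10:62721498-62721737 Klf4 was 5.27 and 4.33 and Sox2 6.09 and 8.05, with H3K27ac of 14.4 from 36 bp on day 2 and none on day 0. The remaining one, chr2:26459619-26460050, had Klf4 of 5.47 and 4.51 and Sox2 of 8.66 and 7.66. There H3K27ac of 19.9 began 19 bp to 1 side on day 2, and on day 0 a peak covered the summit, with a highest fold enrichment of 25.2.

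The 3 shared regions of highest Sox2 fold enrichment had H3K27ac nearby on day 2 and none within 1000 bp on day 0. In chr11:67221730-67222021 Sox2 reached 12.2 and 13.5 and Klf4 3.63 and 3.16, and the summit lay between day 2 H3K27ac peaks, the nearest 154 bp away and the strongest of fold enrichment 9.76. In chr6:146803877-146804022 Sox2 reached 12.3 and 11.9 and Klf4 4.35 and 3.36, again between day 2 peaks, the nearest at 232 bp and the strongest of 9.02. In chr5:19571015-19571154 Sox2 reached 9.98 and 14.0 and Klf4 3.17 and 3.73, with H3K27ac of 6.60 from 222 bp on 1 side on day 2.

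H3K27ac was not used to choose the regions, but with 1 sample per day its shares carry counting error only, and no difference between days was tested. On day 2 an H3K27ac peak lay within 500 bp of the Klf4 summit in 744 of 959 shared regions, 77.6% (exact 95% interval 74.8% to 80.2%), against 40.4% of all 31058 regions of the series. On day 0 the count was 415, a share of 43.3% (40.1% to 46.5%), against 16.5% of all regions. Among Klf4 regions without Sox2 the shares were 65.3% on day 2 and 57.7% on day 0, and among Sox2 regions without Klf4 they were 39.0% on day 2 and 15.2% on day 0. The Klf4 regions without Sox2 were mixed: the 173 with a Sox2 peak of 1 replicate had 74.6% on day 2 (67.4% to 80.9%), an interval that overlaps that of the shared regions, and 63.6% on day 0, while the 118 with no Sox2 peak had 51.7% on day 2 and 49.2% on day 0. The day 2 list was the shorter one, with 42025 peaks over 24.04 Mb against 63795 peaks over 58.3 Mb on day 0.

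On day 2 H3K27ac peaks lay beside the Klf4 summits and seldom over them. A day 2 peak covered the Klf4 summit in 77 shared regions (8.03%), against 3.33% of all regions, while at 400 bp to either side 56.1% and 55.9% of regions were covered. On day 0 a peak covered the summit in 320 regions (33.4%), against 10.9% of all regions, close to the highest shares beside it, 36.3% at 300 bp and 35.9% at 250 bp. Which day was higher therefore depended on the window: on the Klf4 region itself H3K27ac was present in 29.1% of shared regions on day 2 and 38.9% on day 0, and within 250 bp of the summit in 66.3% on day 2 and 42.0% on day 0. The first of these shares was 17.7% without Klf4 replicate 1, 18.4% without Klf4 replicate 2, and 8.34% where at least 50% of the region had to be covered. It lay below that of Klf4 regions without Sox2, with a peak on the region in 39.5% on day 2 and 52.9% on day 0. For Sox2 regions without Klf4 these were 25.3% and 13.3%, on wider regions (median 392 bp against 151 bp). Within 250 bp the shares were 61.5% on day 2 and 55.7% on day 0 for Klf4 regions without Sox2. They were 30.2% and 13.65% for Sox2 regions without Klf4. Klf4 regions without Sox2 had a shallower dip on day 2, with 21.6% covered at the summit and at most 48.5% beside it. Sox2 regions without Klf4, centred on the Sox2 summit, had 3.003% at the summit and at most 25.4% beside it.

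**Figure D3:**
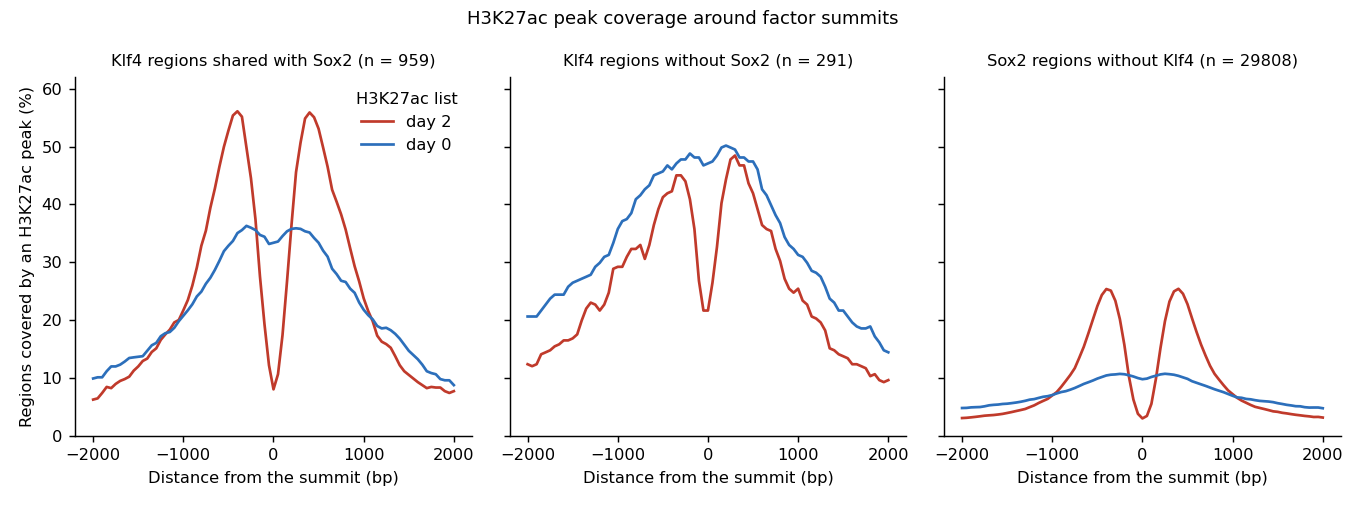
Share of regions covered by an H3K27ac peak (percent) against distance from the factor summit in bp, on day 2 (red) and day 0 (blue), for shared regions, Klf4 regions without Sox2 (both centred on the Klf4 summit) and Sox2 regions without Klf4 (centred on the Sox2 summit). In shared regions the day 2 curve has 2 shoulders of 56.1% and 55.9% and a dip to 8.03% at the summit, where the day 0 curve stands at 33.4%.

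Counted region by region, 444 of 959 shared regions (46.3%, interval 43.1% to 49.5%) lay on day 2 in a gap, meaning that no H3K27ac peak covered the summit and a peak lay on each side within 1000 bp; the share over all 31058 regions was 18.6%. On day 0 the gap count was 49 (5.11%), against 4.12% of Klf4 regions without Sox2, 1.84% of Sox2 regions without Klf4 and 1.96% of all regions. The median gap on day 2 was 412.5 bp wide (quartiles 289 and 519 bp), and the 49 gaps on day 0 had a median of 183 bp. A gap on day 2 was seen in 24.1% of Klf4 regions without Sox2, with a median width of 280 bp, and in 17.7% of Sox2 regions without Klf4, with a median width of 403 bp. A gap needs nearby peaks, so these shares also carry the presence of H3K27ac. Day 2 peaks lay within 1000 bp in 78.7% of shared regions, 67.35% of Klf4 regions without Sox2 and 40.5% of Sox2 regions without Klf4. Of the remaining shared regions on day 2, 234 had a peak on 1 side and 204 had none within 1000 bp. Peak width differed between the days: day 2 peaks that covered the summit of a shared region had a median width of 1004 bp, against 1996 bp on day 0. The difference was smaller over the whole lists, with median widths of 415 bp on day 2 and 517 bp on day 0. Over the whole lists, 32.5% of day 2 peaks and 32.9% of day 0 peaks had their next peak within 500 bp. The part of peak calling and depth in the gaps was not tested, and the depth of the immunoprecipitated samples is unknown because the lists hold no read counts.

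In the day 0 list, from OG2 MEFs, 320 shared regions had a peak over the summit. Here they are set against the day 2 list, from SKM secondary MEFs, so day and cell source cannot be told apart. In shared regions, day 2 peaks over a summit had a median width of 1004 bp, against 1996 bp on day 0. On day 2, 178 of the 320 (55.6%) were in a gap and 75 (23.4%) had a peak on 1 side. A further 53 (16.6%) were covered at the summit and 14 (4.38%) had no peak within 1000 bp. For Klf4 regions without Sox2, 38 of 137 (27.7%) were in a gap on day 2 and 59 of 137 (43.1%) were covered. For Sox2 regions without Klf4, 1199 of 2915 (41.1%) were in a gap and 449 of 2915 (15.4%) were covered. Over all 3372 regions of the series whose summit was covered on day 0, 42.0% were in a gap on day 2 and 16.6% were covered. The covered share of the shared regions thus equalled that of the series.

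Over both days, the shared regions divided mainly into those marked on both days and those marked on day 2 alone. A peak within 500 bp was present on both days in 391 regions (40.8%), on day 2 alone in 353 (36.8%), on day 0 alone in 24 (2.503%) and on neither day in 191 (19.9%). Over all 31058 regions of the series, 27.6% were marked on day 2 alone. Klf4 regions without Sox2 had 50.5% on both days, 14.8% on day 2 alone, 7.22% on day 0 alone and 27.5% on neither day. Sox2 regions without Klf4 had 11.6% on both days, 27.4% on day 2 alone, 3.59% on day 0 alone and 57.4% on neither day. The latter set made up 29808 of the 31058 regions of the series, so its shares were close to those of the series for each state. Within the Klf4 regions without Sox2, day 2 alone made up 17.3% of the 173 that met a Sox2 peak of 1 replicate and 11.0% of the 118 that met none. Regions marked on day 2 alone had median Sox2 fold enrichments of 6.65 and 7.18 in the 2 replicates, those marked on both days 5.83 and 5.95, and those marked on neither day 6.30 and 6.30. The Klf4 medians were 3.17 and 2.83 for day 2 alone, 3.39 and 2.95 for both days, and 3.17 and 2.83 for neither day. Klf4 fold enrichments had a narrower range and were less alike between replicates than those of Sox2, so the 2 factors are not like for like here.

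**Figure D4:**
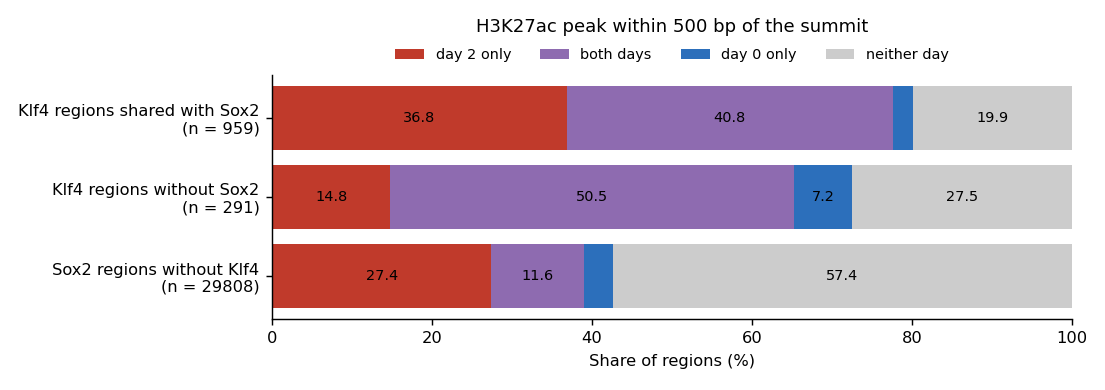
Share of regions (percent) with an H3K27ac peak within 500 bp of the factor summit on day 2 only, on both days, on day 0 only or on neither day, for shared regions (top), Klf4 regions without Sox2 and Sox2 regions without Klf4. Shared regions have 36.8% marked on day 2 only and 40.8% on both days.

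Across Sox2 strength the day 0 shares had a wide range and the day 2 shares a narrow one, a description with no test. In terciles of the shared regions by mean Sox2 fold enrichment, a day 0 H3K27ac peak lay within 500 bp of 57.8% in the lowest, 44.5% in the middle and 27.5% in the highest tercile, while the day 2 shares were 78.1%, 73.0% and 81.6%. Regions marked on day 2 alone therefore made up 23.8% (76 of 320), 31.3% (100 of 319) and 55.3% (177 of 320). In terciles by Klf4 fold enrichment, day 2 alone made up 37.2%, 35.0% and 38.1%, from the lowest to the highest. Day 0 shares were 39.1%, 44.6% and 46.3%. Klf4 fold enrichment was less alike between replicates than that of Sox2 (Pearson correlation 0.27 against 0.47), so the terciles of the 2 factors are not like for like. The day 2 gap was the measure with the wider range over Klf4 terciles, with 41.8%, 41.7% and 55.3%, against 43.1%, 43.3% and 52.5% over Sox2 terciles.

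H3K27ac was also described within quintiles of Sox2 fold enrichment, over Sox2 regions with and without Klf4. Strength was binned and not matched, and the highest quintile ran from 6.72 to 12.8. The part of Sox2 strength in the values was not tested. In each quintile of Sox2 fold enrichment the share with a day 2 peak within 500 bp was higher with Klf4: from the lowest quintile to the highest 84.6%, 75.5%, 77.0%, 73.1% and 78.4% with Klf4, against 30.9%, 33.7%, 36.0%, 42.5% and 52.6% without. The numbers with Klf4 were 78, 110, 178, 182 and 379 regions. On day 0 the shares with Klf4 were 68.0%, 56.4%, 50%, 45.1% and 31.1%, against 18.4%, 17.7%, 15.4%, 13.6% and 10.6% without. The day 2 gap was present in 44.9%, 37.3%, 47.2%, 45.1% and 51.7% with Klf4, against 11.6%, 13.6%, 15.8%, 19.7% and 28.1% without. Since a gap needs nearby peaks, this measure is not separate from the presence of a peak. The exact 95% intervals of these shares cover counting error only. They hold no error between H3K27ac samples, so they cannot decide whether the sets with and without Klf4 differ. The difference was not tested, and the antibody label of the Klf4 samples names Sox2. Without Klf4 the day 2 share was higher at each step of Sox2 strength, a trend that the regions with Klf4 did not show.

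**Figure D5:**
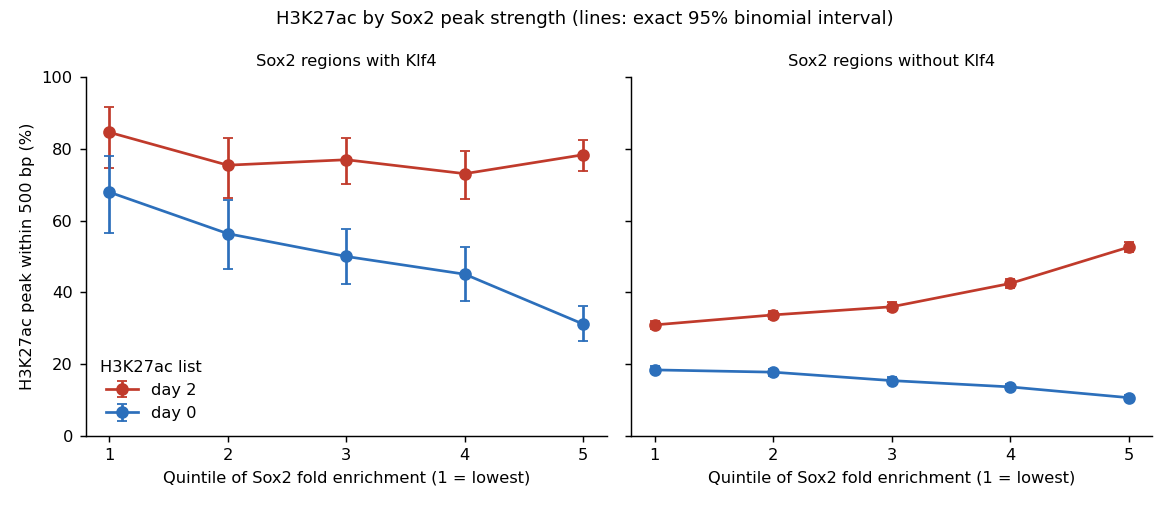
Share of Sox2 regions with an H3K27ac peak within 500 bp of the Sox2 summit (percent) by quintile of Sox2 fold enrichment, for regions with Klf4 (left) and without Klf4 (right), on day 2 (red) and day 0 (blue); lines are exact 95% binomial intervals. With Klf4 the day 2 share stays between 73.1% and 84.6% and the day 0 share is 68.0% in the lowest and 31.1% in the highest quintile.

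Where H3K27ac was present, the peaks beside shared regions ranked high in their lists. The strongest peak within 500 bp had a median percentile of 76.1 by fold enrichment among all day 2 peaks and 88.8 among all day 0 peaks, and 182 of 744 (24.5%) and 185 of 415 (44.6%) were in the top decile. For Klf4 regions without Sox2 the median percentiles were 85.5 on day 2 and 92.2 on day 0, and for Sox2 regions without Klf4 they were 56.4 on day 2 and 78.6 on day 0. A wide or strong peak covers more windows than a weak one, and the lists differ in length, so percentiles of the 2 days show no change between them.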

How the data were processed

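Chromatin was crosslinked with formaldehyde and sonicated, per the labels' protocols. Per the submitters' processing notes, CASAVA 1.8.4, Bowtie2 and MACS2 were used with the mouse build mm9; settings, control samples and the MACS2 version are not given in the sources used here. The 6 deposited peak lists hold 1 sample each, with fold enrichment over local background (a linear ratio), −log10 p and −log10 q per peak, all the authors' own values. The RNA counts per gene were deposited by the authors (STAR 2.5.1b, per the submitters' processing notes).

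Intervals were merged and compared with Python 3.11.15, numpy 2.4.6 and pandas 2.3.3, and the code was checked on simulated intervals. Peaks on random chromosomes were dropped. In each region the peak of highest fold enrichment per replicate was used, and the summit is the mean of both replicates' summits. Exact (Clopper-Pearson) 95% intervals came from scipy 1.17.1, and figures from matplotlib 3.10.9. The intervals cover counting error only.

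RNA levels (CPM) are the deposited counts scaled to each library's total, with no test; 20 other per-sample columns were not used. The 5 input samples were not analysed here. The regions named are the 8 of highest mean Klf4 and the 3 of highest mean Sox2 fold enrichment. The regions and marker lists were chosen with earlier results of these data known. No gene positions or genome of build mm9 were used, so no region was tied to a gene, no sequence is printed, and a planned test of genes near the regions was not run.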

Additional observations from a re-analysis of the deposited data

How the results depend on the processing

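Leaving out each sample in turn gave between 1024 and 3681 shared regions and a share of Klf4 regions of 53.1% to 84.0%. The median Klf4 fold enrichment was 2.83 and 3.17 with either Klf4 sample left out, and the median summit distance 65 and 64 bp with the samples numbered 1 or 2 of both factors left out. With each of the 4 samples left out in turn, H3K27ac on the region ranged over 17.7% to 30.4% on day 2 and 28.4% to 40.6% on day 0, within 500 bp over 68.0% to 77.3% on day 2 and 34.0% to 45.0% on day 0, and the gap over 35.0% to 45.2% on day 2 and 3.50% to 5.37% on day 0. With Klf4 peaks of −log10 p of at least 3, a limit set after seeing the data, 345 of 428 regions (80.6%) were shared, with H3K27ac within 500 bp in 80.9% on day 2 and 47.2% on day 0 and a gap in 53.0% on day 2 and 6.96% on day 0. Of Klf4 peaks found in 1 replicate only, 51.7% overlapped Sox2. A summit within 200 bp of a Sox2 summit was held by 73.4% of Klf4 regions, and the nearest Sox2 summit in place of the strongest gave 55 bp. H3K27ac peaks of −log10 q of at least 5 gave 67.6% within 500 bp and 33.2% in a gap on day 2, and flanks of 500 bp gave a gap in 42.9%. H3K27ac covering at least 50% of the region was found in 8.34% on day 2 and 33.7% on day 0; in a 200 bp window it was found in 32.1% on day 2 and 39.8% on day 0. It was present within 250 bp in 66.3% on day 2 and 42.0% on day 0, within 500 bp in 77.6% on day 2 and 43.3% on day 0, within 1000 bp in 78.7% on day 2 and 44.7% on day 0, and on the Sox2 region in 63.0% on day 2 and 42.1% on day 0. Day 2 was thus lower than day 0 on the Klf4 region and in the 200 bp window, and higher in the wider windows. The wider windows, the gap and the Sox2 summit were added after seeing the data. No Klf4 peak reached a −log10 q of 5, so that planned limit gave no value, and the variants planned for genes near the regions were not run. No paired analysis was possible because no result comes from a test. Depth of the immunoprecipitated samples is unknown, 1 H3K27ac sample per day gives no replicate error, and the antibody label of the Klf4 samples names Sox2.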
